A study of Mus musculus with 10 samples.

Results

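Matricellular and matrix remodelling genes were followed in the right ventricle of 10 mice, 1 array per mouse. The 10 genes were chosen by name: Ccn2 (also named Ctgf), Postn, Tnc, Sparc, Spp1, Fn1, Lox, Timp1, Mmp2 and Dcn. In the array annotation 9 of them had a probe set with no other gene symbol, which gave 14 of the 22690 probe sets on the array. Spp1 had none and was not analysed here. Probe sets whose mean log2 signal was under the 40th percentile were left out of the tests, which kept 10 probe sets of 8 genes. The 4 probe sets below that level were the only one of Tnc, 1 of Fn1 and 2 of Lox.

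The series set plakoglobin (+/-) mice against their wildtype littermates after endurance training, all of strain 129SV. There were 4 trained plakoglobin (+/-) and 4 trained wildtype mice of 6 months, 2 males and 2 females in each group. There was 1 untrained plakoglobin (+/-) and 1 untrained wildtype mouse, both females of 10 months, so training and age cannot be told apart. Training meant 6 swims per week at a water temperature of 35 °C, with sessions lengthened from 5 to 90 min. Littermate pairs are not named in the labels, nor is the way the plakoglobin allele was made. Replicate numbers only name a mouse.

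The matrix of the heart is laid down mainly by fibroblasts, and it carries the pull of the muscle cells and stores growth factors. Matricellular proteins such as CCN2, periostin, tenascin-C and SPARC are secreted into it without being a main part of its scaffold, and act on cells through integrins and other receptors. Many of them are known to be made in greater amounts by a loaded or injured heart. Fibronectin and the proteoglycan decorin belong to the scaffold, lysyl oxidase crosslinks collagen and elastin, MMP2 cuts matrix proteins, and TIMP1 blocks such proteases.

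Values are array signals on a linear scale, made by the authors, with no detection calls. Jup, the gene of plakoglobin, read 1991.7 to 3519.9 in trained plakoglobin (+/-) mice and 2928.3 to 4322.0 in trained wildtype mice, so the groups overlapped. Of the untrained mice, the plakoglobin (+/-) one read 3156.9 and the wildtype one 2386.8, the opposite order to the labels. The signal thus does not separate the genotypes, which are given as labelled. RNA integrity was read from the GAPDH controls, as the 3' signal over the 5' signal. Trained plakoglobin (+/-) replicate 1 had a GAPDH ratio of 2.98. Among wildtype mice, trained replicate 2 had 17.8 and trained replicate 1 had 2.50. The remaining 7 arrays had 0.849 to 1.02. The same ratio of the actin controls was high on only 2 of these 3 arrays, those of replicate 1 of each trained genotype, at 2.65 for plakoglobin (+/-) and 3.05 for wildtype. The array with the GAPDH ratio of 17.8 had an actin ratio of 1.29, and all arrays but those 2 lay at 0.932 to 1.29. All 8 markers of working heart muscle cells passed the filter. Of the 4 atrial markers the myosin light chain Myl7 and sarcolipin (Sln) did not. The summed signal of 7 immediate early genes, which respond within minutes to stress or handling, was 35401.2 to 178874 in the 4 trained males and 7114.8 to 10026.7 in the 4 trained females. The untrained females read 12272.9 and 10751.9.

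Ccn2 was the gene of the group that stood furthest from the untrained mice. Its signal was 42544.6, 13049.9, 9336.0 and 9834.2 in the trained plakoglobin (+/-) mice and 35171.9, 21339.6, 21138.4 and 12110.5 in the trained wildtype mice. The untrained plakoglobin (+/-) mouse read 3960.5 and the untrained wildtype mouse 3258.4. Every trained signal was thus above both untrained ones. The mean was 20566 ± 12344 in trained mice (SD, n = 8) and 3609.4 ± 496.5 in untrained mice (SD, n = 2). CCN2 is a secreted growth factor partner that TGF-beta and stretch induce.

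**Figure D1:**
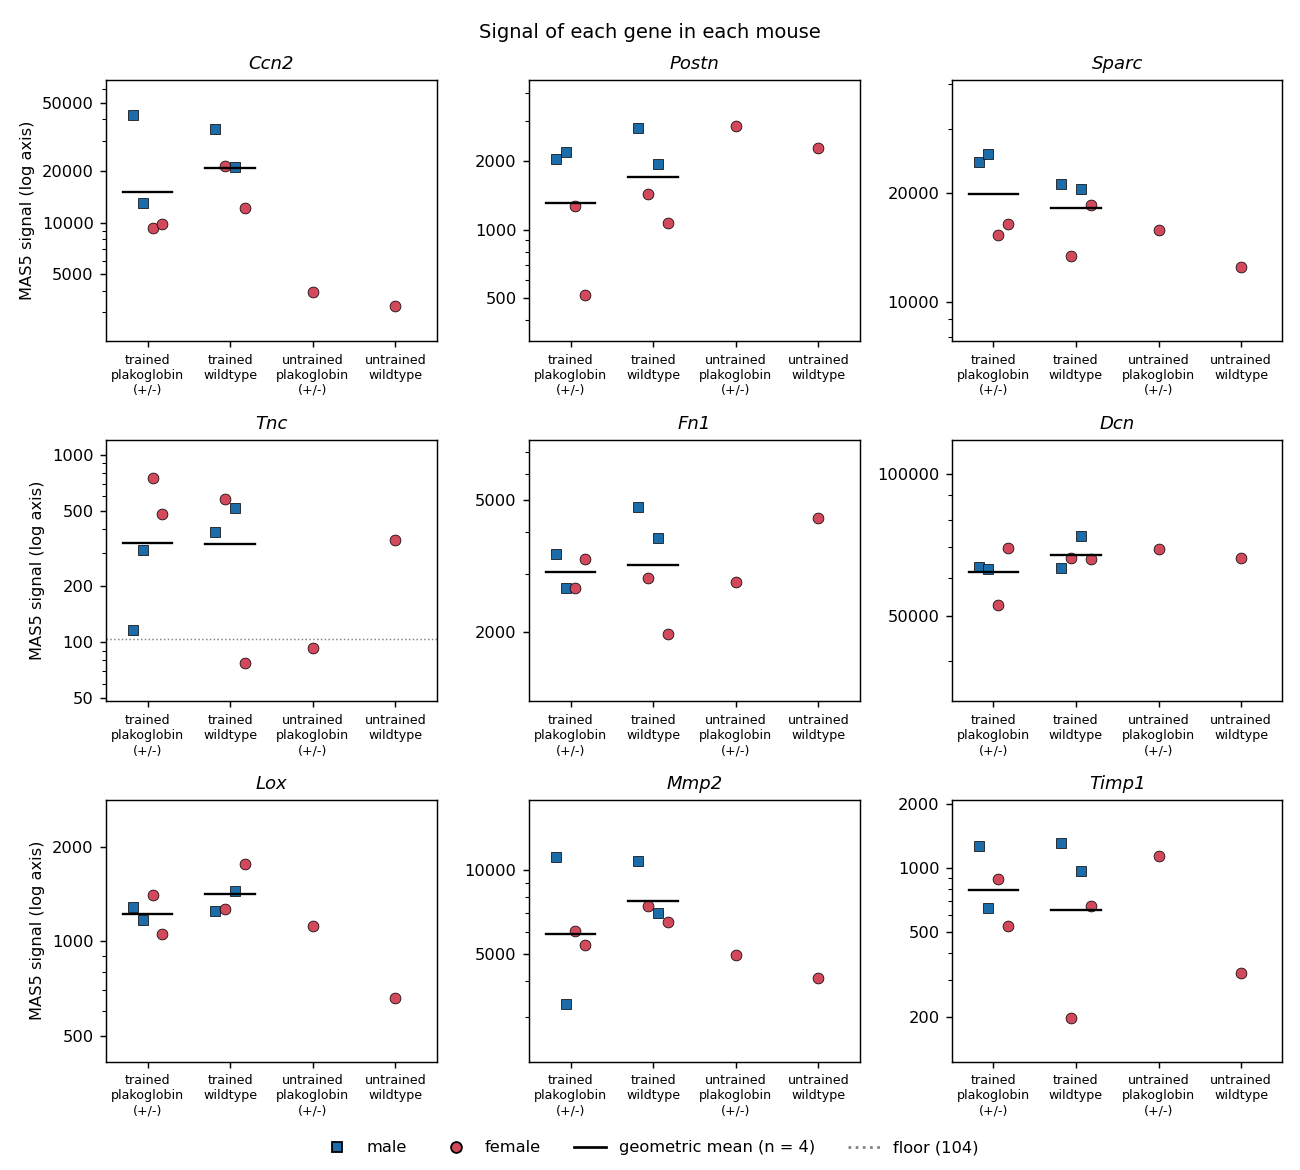
MAS5 signal (log axis) of the 9 measured genes in each of the 10 mice, read by the brightest probe set, with trained plakoglobin (+/-), trained wildtype and the 2 untrained mice from left to right. Squares are males, circles are females, bars are geometric means of 4 mice, and the dotted line is the floor of 104. Ccn2 is at 9336.0 or above in every trained mouse and at 3960.5 or below in both untrained mice, while Dcn stays between 52606.2 and 73836.9 throughout.

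A linear model of the 10 mice that also held genotype and sex was fitted with limma, and its log2 difference of Ccn2 was 1.79 (SE 0.44), a 3.45-fold higher signal in trained mice. Its 95% interval ran from 0.83 to 2.75. It did not pass the threshold over all 13576 probe sets tested (limma, adjusted p = 0.142). Since both untrained mice were females, this estimate equals that of the females alone, and the trained males enter through the sex term and the spread. With females only the difference passed (1.79, SE 0.29; limma, adjusted p = 0.029), where 0.28% of probe sets were called higher. Without the 3 arrays of high GAPDH ratio it also passed (1.57, SE 0.21; limma, adjusted p = 0.00243), where 0.751% were called higher. A two-sided exact permutation test without a sex term, where the difference was 2.30, gave p = 0.0222, the smallest that 45 labelings allow. That test cannot tell training from sex, as no male was untrained. With each mouse left out in turn the difference stayed between 1.41 and 2.17, and the adjusted p lay between 0.0414 and 0.66. The value under the threshold came without trained plakoglobin (+/-) replicate 1, where 0.287% of probe sets were called higher.

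Those 3 arrays of high GAPDH ratio held the 3 highest Ccn2 signals, although the lowest of the 3, 21339.6, was close to the 21138.4 of trained wildtype replicate 3, whose ratio was 0.916. The 5 other trained mice read 9336.0 to 21138.4, all above the untrained mice. The sum of immediate early genes was lower in all 4 trained females than in both untrained females, an order found at 10.3% of all single probe sets. In the trained females Ccn2 read 9336.0 to 21339.6. The summed signal of 4 atrial markers was 20725.9 to 37329.5 in trained mice, against 5735.7 and 6705.7 in the untrained plakoglobin (+/-) and wildtype mice. Nppa, which ventricles also make under load, was the 1 gene of the list past the threshold, with a log2 training difference of 2.66 (SE 0.26). Myl4 had 0.19 (SE 0.28), and Myl7 and Sln were below the filter. The part of these values in the Ccn2 difference was not tested.

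Postn read lower in trained than in untrained females. The trained plakoglobin (+/-) mice read 2038.7, 2203.7, 1270.6 and 518.1, and the trained wildtype mice 2814.3, 1442.7, 1943.7 and 1067.1. The untrained plakoglobin (+/-) mouse read 2852.9 and the untrained wildtype mouse 2280.8. The 4 trained females, at 518.1 to 1442.7, lay below both untrained females, and the 4 trained males, at 1943.7 to 2814.3, overlapped them. Periostin is a matricellular protein of activated fibroblasts and heart valves that aids collagen assembly. The log2 difference of trained against untrained mice was -1.35 (SE 0.38, 95% interval -2.18 to -0.52), which did not pass (limma, adjusted p = 0.233). It ranged from -1.70 to -0.996 with each mouse left out in turn. Without a sex term it was -0.77, with p = 0.178 in the exact permutation test. Whether the difference depends on sex cannot be tested, as no male was untrained. The summed signal of 8 macrophage markers was 27431.9 to 33408.5 in trained females and 38586.7 to 46867.2 in trained males, against 45684.1 and 46534.5 in the untrained plakoglobin (+/-) and wildtype females. The sum of 5 markers of other leukocytes was 2339.7 to 3844.4 in trained mice, against 4707.1 and 5573.5 in the untrained plakoglobin (+/-) and wildtype mice. Of these 5, Cd3e and S100a8 were below the filter. The log2 training difference was -1.30 (SE 0.48) for Ptprc, -1.08 (SE 0.42) for S100a9 and -0.21 (SE 0.33) for Cd79a, and 0 of them passed by limma. The part of macrophages and other leukocytes in the Postn difference was not tested.

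Sparc, which encodes a collagen-binding matricellular protein needed for collagen fibre assembly, had a log2 training difference of 0.17 (SE 0.18, 95% interval -0.23 to 0.57; limma, adjusted p = 0.891). Signals by its brightest probe set were 13414.2 to 25623.7 in trained mice, median 19503.8, against 15825.0 and 12472.5 in the untrained mice. Without a sex term it was 0.43, with p = 0.133 in the exact permutation test, and with each mouse left out in turn it was 0.049 to 0.27. A further probe set of Sparc gave 0.25 (SE 0.40). The 2 probe sets did not follow each other across the 10 mice, with a Pearson r of -0.17. Trained wildtype replicate 2, the array with the GAPDH ratio of 17.8, read 26100.7 on the further probe set, where the other trained wildtype mice read 9254.0 to 10348.8. On the brightest probe set the same mouse was the lowest of all trained mice.

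Tnc, which encodes tenascin-C, a protein of healing and developing matrix, was below the filter. It read 116.5, 310.5, 750.1 and 483.1 in trained plakoglobin (+/-) mice and 388.5, 579.6, 516.1 and 77.0 in trained wildtype mice. The untrained plakoglobin (+/-) mouse read 93.0 and the untrained wildtype mouse 352.0. The values 77.0 and 93.0 are below the floor of 104 that was set before logs were taken, and the groups overlapped. The probe set was not tested in the models, and an exact permutation test gave p = 0.4 between trained and untrained mice.

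Of the scaffold genes, Dcn was the steadiest member. Its signal spanned 52606.2 to 73836.9 in the 8 trained mice, against 69358.1 and 66353.4 in the untrained mice. The log2 difference was -0.10 (SE 0.16), and its 95% interval, -0.46 to 0.26, is the narrowest of the 8 genes. Fn1, the gene of fibronectin, read 1971.7 to 4758.0 in trained mice and 2822.4 and 4422.5 in the untrained plakoglobin (+/-) and wildtype mice, so the untrained pair spanned most of the trained range. Its log2 difference was -0.40 (SE 0.29; limma, adjusted p = 0.811). Its further probe set read 74.5 to 524.1 on all 10 arrays and was below the filter.

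Among the enzymes, Lox read 1282.7, 1171.1, 1405.7 and 1055.6 in trained plakoglobin (+/-) mice and 1246.6, 1264.7, 1448.2 and 1762.7 in trained wildtype mice. The untrained plakoglobin (+/-) mouse read 1115.6 and the untrained wildtype mouse 661.1. Trained plakoglobin (+/-) replicate 4 was thus the only trained mouse below the higher untrained one. The log2 difference was 0.65 (SE 0.33, 95% interval -0.07 to 1.37; limma, adjusted p = 0.644), and it was 0.17 without the untrained wildtype mouse and 1.14 without the other. In an exact permutation test without a sex term Lox had p = 0.0444, unadjusted. The further probe sets of Lox were below the filter and correlated with the brightest one at a Pearson r of -0.14 and -0.22 over the 10 mice.

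Mmp2, a gelatinase, read 11071.3, 3320.3, 6044.7 and 5416.2 in trained plakoglobin (+/-) mice and 10730.2, 7438.4, 6994.8 and 6506.3 in trained wildtype mice on its brightest probe set. The untrained plakoglobin (+/-) mouse read 4951.1 and the untrained wildtype mouse 4122.0. Signals of 7 of 8 trained mice were above both untrained mice, all but the male trained plakoglobin (+/-) replicate 2. The log2 difference was 0.48 (SE 0.40; limma, adjusted p = 0.837), or 0.26 (SE 0.27) on the further probe set. On the brightest it was 0.15 without the untrained wildtype mouse and 0.81 without the other. The 2 highest signals came from the 2 male arrays whose GAPDH ratio was 2.98 and 2.50.

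Timp1 was the most scattered of the tested genes. It read 1270.7, 652.1, 891.6 and 533.6 in trained plakoglobin (+/-) mice and 1305.1, 198.5, 974.6 and 664.1 in trained wildtype mice. The untrained plakoglobin (+/-) mouse, at 1135.6, and the untrained wildtype mouse, at 322.0, were 3.53-fold apart from each other. The log2 difference of -0.27 (SE 0.65) changed sign with several settings and had a 95% interval from -1.70 to 1.16.

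Counted over the group, 0 of the 10 tested probe sets passed between trained and untrained mice by limma, where 0.626% of all probe sets did. At an unadjusted p under 0.05 there were 2, Ccn2 and Postn, where 8.68% of all probe sets were called. The 8 trained signals were all above the untrained ones at 1 of the 10, Ccn2, against 4.63% of all probe sets, and below both at 0, against 4.61%. Among females alone, 4 trained mice lay above the 2 untrained ones at 2 of the 10, Ccn2 and Mmp2, against 10.5%, and below them at 1, Postn, against 10.3%. Of the 8 genes 4 were higher and 4 lower, with a median log2 difference of 0.03, beside 0.0009 over all 8365 genes tested, of which 50.1% were higher.  In bulk tissue, fewer cells of a type and less RNA per cell cannot be told apart. The summed signal of 10 fibroblast markers was 107536 to 155329 in trained mice, against 104085 and 136462 in the untrained plakoglobin (+/-) and wildtype mice. In the training fit, 3 of these 10 markers were higher and 7 lower, with a median log2 difference of -0.22, and 0 passed by limma. The part of fibroblasts in the differences of the 8 genes was not tested.

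**Figure D2:**
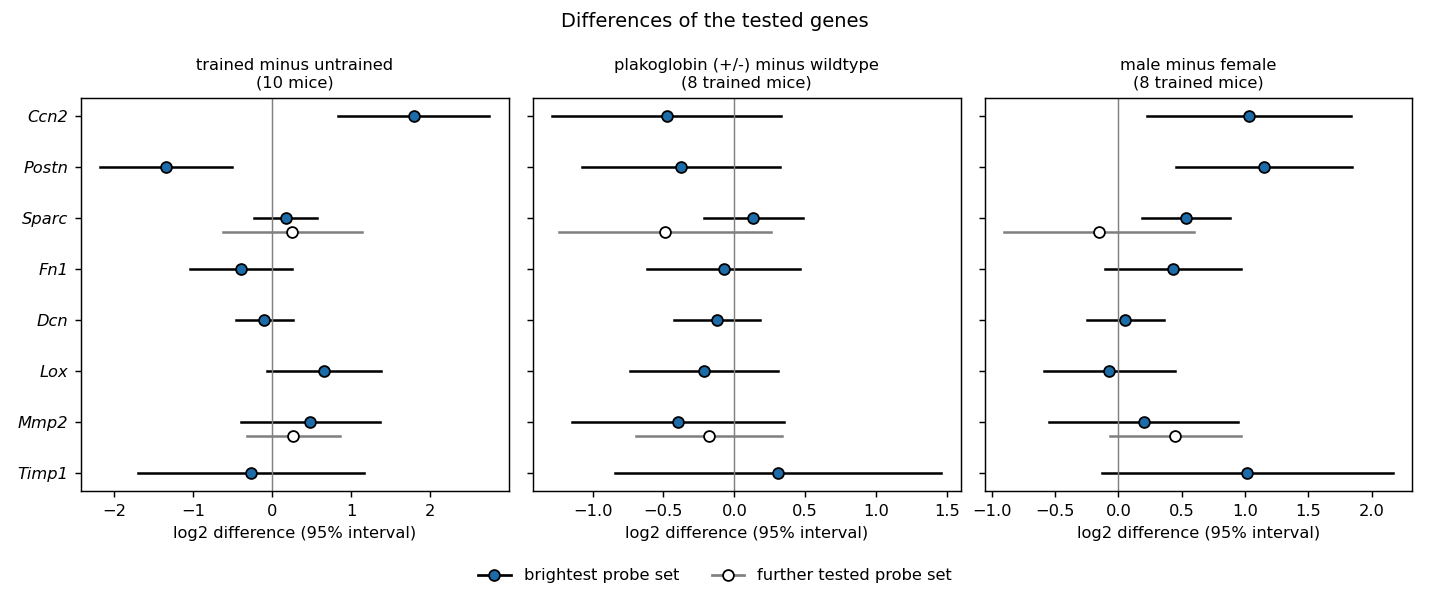
Log2 differences with 95% intervals for the 8 tested genes: trained minus untrained over 10 mice, plakoglobin (+/-) minus wildtype over 8 trained mice, and male minus female over the same 8. Filled points are the brightest probe set and open points a further tested one. The interval of Ccn2 lies above 0 and that of Postn below 0 for training, all genotype intervals cross 0, and for sex those of Ccn2, Postn and Sparc lie above 0, although none passed the test over all probe sets.

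The next comparison asked whether trained plakoglobin (+/-) mice differ from trained wildtype mice in these genes. None of the 10 tested probe sets passed by limma, 0 had an unadjusted p under 0.05, where 2.01% of all probe sets did, and 0% of all probe sets passed. The groups overlapped at 10 of 10 probe sets. Over all probe sets 0.803% were above and 0.796% below without overlap. Ccn2 averaged 18691 ± 15987 in trained plakoglobin (+/-) mice and 22440 ± 9516.7 in trained wildtype mice (SD, n = 4 each), a log2 difference of -0.48 with a 95% interval of -1.28 to 0.33. Without trained plakoglobin (+/-) replicate 1, the mouse with the highest signal, the other 3 averaged 10740 ± 2015.9, and the log2 difference was -0.87 (limma, adjusted p = 0.807, the lowest of the 8 fits with 1 mouse left out). Without trained plakoglobin (+/-) replicate 2 it was -0.19, and with the GAPDH ratio as a covariate it was -0.15, so the size of the difference depended on single mice and on that term..

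Postn averaged 1507.8 ± 775.0 in trained plakoglobin (+/-) mice and 1816.9 ± 755.7 in trained wildtype mice (SD, n = 4 each), a log2 difference of -0.38 (SE 0.31). Sparc averaged 20414 ± 5293 in trained plakoglobin (+/-) mice and 18406 ± 3526.2 in trained wildtype mice (SD, n = 4 each), with 0.13 (SE 0.16). Its further probe set had -0.49 (SE 0.34). Mmp2 had -0.40 (SE 0.33), Lox -0.21 (SE 0.23), Dcn -0.12 (SE 0.14), Fn1 -0.08 (SE 0.24) and Timp1 0.31 (SE 0.52). Of the 8 genes 6 were lower and 2 higher, with a median of -0.17 beside 0.0052 over all genes tested, of which 51.2% were higher. The 95% interval was narrowest for Dcn, -0.43 to 0.18, and widest for Timp1, -0.84 to 1.46, so a difference of 1 on the log2 scale lies outside it for Dcn, Lox, Fn1 and the brightest probe set of Sparc. It lies inside it for Ccn2, Postn, Timp1, the brightest probe set of Mmp2 and the further probe set of Sparc, whose interval was -1.24 to 0.26. The further probe set of Mmp2 had -0.18 (SE 0.23), and its interval of -0.70 to 0.33 leaves a difference of 1 outside.

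The training difference was also compared between the genotypes with an interaction term, in which each untrained group holds 1 mouse that is assumed to vary like the others. None of the 10 probe sets passed and 0 had an unadjusted p under 0.05, where 3.2% of all probe sets did and 0% passed. The estimates of the 8 genes ran from -1.51 (SE 1.15) for Timp1, whose untrained mice differed most, to 0.57 (SE 0.54) for Fn1. Ccn2 had -0.76 (SE 0.82) and Postn -0.70 (SE 0.69). The genotype by sex term over the 8 trained mice gave 0 of 10 probe sets past the threshold and 0 at an unadjusted p under 0.05, where 2.66% of all probe sets had one.

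Within the trained mice, males read higher than females at 7 of the 8 tested genes, with a median log2 difference of 0.48, beside 0.03 over all genes tested, of which 54.5% read higher in males. Postn read 1943.7 to 2814.3 in the 4 males and 518.1 to 1442.7 in the 4 females, with no overlap. Sparc, on its brightest probe set, read 20543.8 to 25623.7 in males and 13414.2 to 18463.7 in females, again with no overlap. Ccn2 averaged 27976 ± 13336 in males and 13155 ± 5588.4 in females (SD, n = 4 each), and the female trained wildtype replicate 2 lay within the male range. Males were thus above all females at 2 of the 10 tested probe sets, against 2.98% of all probe sets, and below them at 0, against 2.91%.

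None of these differences passed over all probe sets, of which 0.0516% did. The log2 difference was 1.15 (SE 0.31, 95% interval 0.45 to 1.85; limma, adjusted p = 0.496) for Postn, 0.53 (SE 0.16, 95% interval 0.18 to 0.88; limma, adjusted p = 0.496) for Sparc and 1.03 (SE 0.36, 95% interval 0.22 to 1.84; limma, adjusted p = 0.509) for Ccn2. An unadjusted p under 0.05 was found for these 3, where 8.82% of all probe sets had one. In two-sided exact permutation tests, added after the values were seen, Postn and Sparc each had p = 0.0286, the smallest that 70 labelings allow. Any probe set without overlap between 4 males and 4 females gets this value, so it restates that separation and adds no evidence. By the same two-sided exact permutation test Ccn2 and Timp1, whose groups overlapped, each had p = 0.0857. Timp1 averaged 1050.6 ± 304.3 in males and 572 ± 289.6 in females (SD, n = 4 each). The further probe set of Sparc did not share the difference, at -0.15 (SE 0.34).

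With the 3 arrays of high GAPDH ratio left out, the difference was 1.19 (SE 0.42) for Postn and 0.46 (SE 0.17) for Sparc. For Ccn2 it was 0.60 (SE 0.16) and for Timp1 0.19 (SE 0.56), both more than 1.5 times smaller than with them. The immediate early genes separated the same mice, with sums of 35401.2 to 178874 in trained males and 7114.8 to 10026.7 in trained females. Of these 7 genes 3 passed by limma, among them Fos at 5.91 (SE 0.66) and Egr1 at 4.35 (SE 0.48) on the log2 scale. The sum of 8 macrophage markers was 38586.7 to 46867.2 in males and 27431.9 to 33408.5 in females, without overlap. That of 10 fibroblast markers overlapped, at 129325 to 155329 in males and 107536 to 148700 in females. Gene by gene, 8 of these 10 were higher in males and 2 lower, with a median log2 difference of 0.22. All 8 markers of working heart muscle cells were lower in males, with a median of -0.20. Over all genes tested 54.5% were higher in males, and 0 markers of either list passed by limma. The part of these in the sex differences of Postn, Sparc and Ccn2 was not tested.

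**Figure D3:**
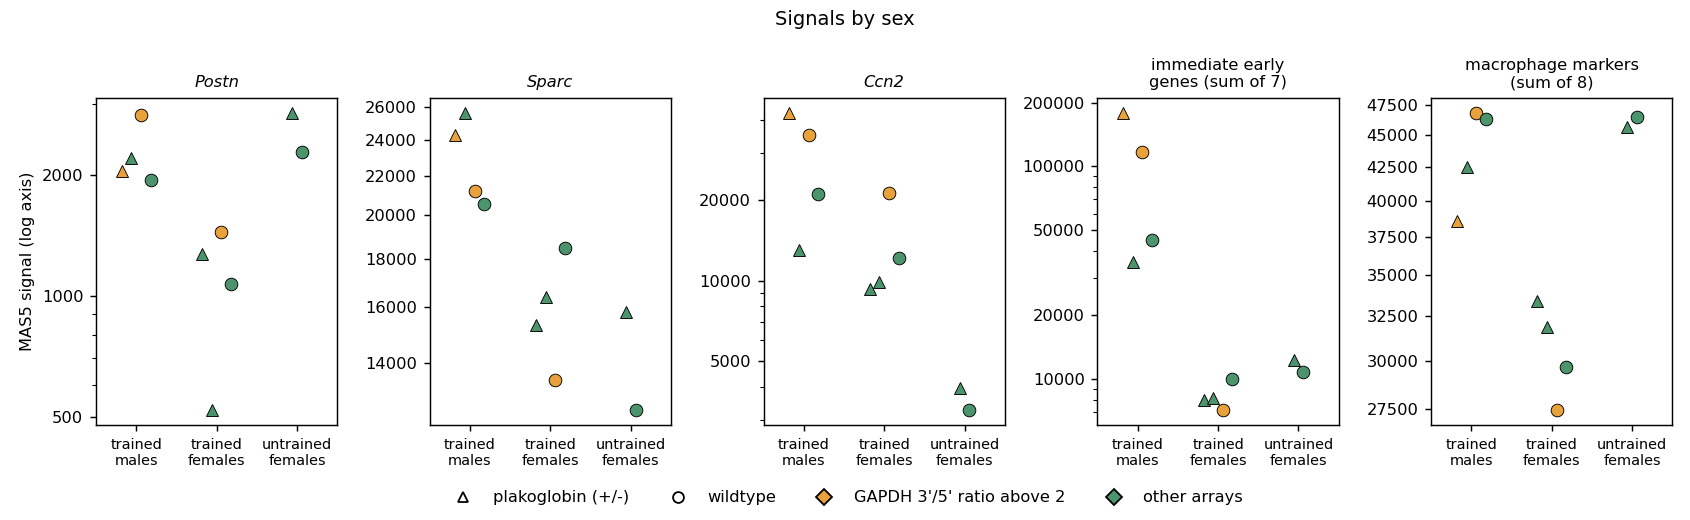
Signal (log axis) of Postn, Sparc and Ccn2 and the summed signals of immediate early genes and macrophage markers in trained males, trained females and untrained females, 1 point per mouse. Triangles are plakoglobin (+/-) mice, circles are wildtype mice, and orange marks the 3 arrays with a GAPDH ratio above 2. Males and females do not overlap among trained mice for Postn, the brightest probe set of Sparc, the immediate early sum and the macrophage sum, and they do for Ccn2.

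Postn and, on its brightest probe set only, Sparc read higher in all trained males than in all trained females. Their promoters are shown for that reason, 250 bases before to 50 after a transcript start, from RefSeq on GRCm38.p6. The table held promoters for 4 of the 9 measured genes. Capitals mark the matches to 5 motifs on either strand: the TATA box TATAAA, the TEAD site GGAATG, the androgen and glucocorticoid receptor core AGAACA, the oestrogen receptor core GGTCA and the AP-1 site TGACTCA or TGAGTCA. None of the matches shown overlap another.
Postn, chr3:54359017-54359316, plus strand: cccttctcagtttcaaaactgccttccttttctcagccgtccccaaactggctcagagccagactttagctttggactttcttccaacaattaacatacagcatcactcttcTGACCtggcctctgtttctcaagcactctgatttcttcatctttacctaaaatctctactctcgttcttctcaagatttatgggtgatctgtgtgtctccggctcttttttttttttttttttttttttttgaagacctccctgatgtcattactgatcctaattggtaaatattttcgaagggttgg
Postn, second start, chr3:54360857-54361156, plus strand: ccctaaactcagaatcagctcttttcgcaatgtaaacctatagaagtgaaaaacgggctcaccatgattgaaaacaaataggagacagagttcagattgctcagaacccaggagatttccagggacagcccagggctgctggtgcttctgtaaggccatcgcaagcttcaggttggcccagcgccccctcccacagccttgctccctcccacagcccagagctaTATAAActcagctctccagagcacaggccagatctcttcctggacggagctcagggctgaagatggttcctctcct
Sparc, chr11:55420031-55420330, minus strand: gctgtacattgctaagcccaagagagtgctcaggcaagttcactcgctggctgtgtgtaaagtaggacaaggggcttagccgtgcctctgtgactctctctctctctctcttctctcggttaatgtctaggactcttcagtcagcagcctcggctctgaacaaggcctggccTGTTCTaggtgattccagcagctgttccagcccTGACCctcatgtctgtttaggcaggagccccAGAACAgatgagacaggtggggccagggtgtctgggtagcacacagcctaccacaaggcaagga
The second Postn start has TATAAA 26 bases before it, a motif found in 13.6% of the 32851 promoters of the table, and the first start has a GGTCA core read on the other strand, a motif found in 40.5%. The Sparc window has AGAACA 14 bases before the start and the same core on the other strand further upstream, a motif found in 19% of promoters, and a GGTCA core on the other strand. Neither gene has the TEAD or AP-1 letters in these windows, which 14.7% and 5.2% of promoters hold. The matches describe the letters of these windows and are no evidence of binding.

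Other genes of the same pathways were read from 5 lists of 94 genes, of which 87 had a probe set and 74 were tested. None of the 74 passed between trained and untrained mice by limma, where 0.626% of all probe sets did, and 12 had an unadjusted p under 0.05, where 8.68% of all probe sets did. Of the 74 genes 31 were higher and 43 lower in trained mice, with a median log2 difference of -0.11, while 50.1% of all genes tested were higher. By genotype 0 passed and 4 had an unadjusted p under 0.05, where 2.01% of all probe sets did. By sex 0 passed and 11 had an unadjusted p under 0.05, where 8.82% of all probe sets did.

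The receptors held the genes nearest to the threshold, with 5 of 11 higher and 6 lower and a median of -0.12. Sdc4, the gene of syndecan-4, a heparan sulphate coreceptor for fibronectin and CCN2, read 1419.2 to 3644.4 in trained mice, against 264.0 and 849.6 in the untrained plakoglobin (+/-) and wildtype mice. Its log2 difference of 1.96 (SE 0.39) had an adjusted p of 0.0541 by limma. Of 22 other settings, 13 kept it above the threshold and the rest brought it under. Among the latter were quantile normalization (2.02, with limma adjusted p = 0.0398) and the fit without the 3 arrays of high GAPDH ratio (2.20, with limma adjusted p = 0.0108). Its difference was 1.19 with only the wildtype mouse as untrained and 2.74 with only the plakoglobin (+/-) mouse. Over all settings its adjusted p was 0.0108 to 0.727, the highest without the untrained plakoglobin (+/-) mouse. Sdc2, which encodes syndecan-2, read 1070.1 to 2026.7 in trained mice, against 3399.4 and 2594.3 in the untrained plakoglobin (+/-) and wildtype mice, a log2 difference of -1.25 (SE 0.25; limma, adjusted p = 0.0637). Trained and untrained signals did not overlap at either syndecan, in opposite directions. Over all probe sets 4.63% lay above and 4.61% below without overlap, and both syndecans were named for their large training differences. The fibronectin receptor subunit Itga5 had -0.97 (SE 0.51).

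Of 26 proteases, inhibitors and crosslinkers 6 were higher and 20 lower, with a median of -0.18. The inhibitors Timp4 and Timp3 were the highest. Timp4, the inhibitor most abundant in heart, read 2284.7 to 12462.5 in trained mice, against 2041.3 and 2851.8 in the untrained plakoglobin (+/-) and wildtype mice, with a log2 difference of 1.59 (SE 0.39; limma, adjusted p = 0.14). Timp3, which stays bound to the matrix, read 4171.5 to 10129.3 in trained mice, against 2044.3 and 3771.9 in the untrained plakoglobin (+/-) and wildtype mice, with 1.35 (SE 0.35; limma, adjusted p = 0.18). Without the 3 arrays of high GAPDH ratio, Timp4 (1.38, with limma adjusted p = 0.0397), Sdc2 (-1.40, with limma adjusted p = 0.0210) and, among the glycoproteins, Mgp (-1.02, with limma adjusted p = 0.0226) were also under the threshold. Of 22 other settings for each gene, 20 kept Timp4, 19 kept Sdc2 and 21 kept Mgp above it. Mmp14, a membrane protease that activates MMP2, had -0.78 (SE 0.32; limma, adjusted p = 0.497).

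Among 11 other matricellular genes 8 were higher and 3 lower, with a median of 0.22. Thbs4, a thrombospondin, had 1.78 (SE 0.99), Ccn5, another CCN protein, 0.80 (SE 0.72), and Tnxb, a tenascin of loose connective tissue, -0.76 (SE 0.26). The 2 untrained mice differed widely at Thbs4, with 158.0 in the plakoglobin (+/-) mouse and 937.6 in the wildtype mouse, and its difference was 0.60 without the first and 2.96 without the second. That of Ccn5 was -0.56 and 2.16. Ccn1 (also named Cyr61), another CCN protein, was singled out after its values were seen. Its training difference was 0.06 (SE 0.42). It read 7588.8 to 24374.9 in trained males and 2269.8 to 3640.5 in trained females, a log2 sex difference of 2.37 (SE 0.36; limma, adjusted p = 0.0791).

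Of 19 matrix glycoproteins and proteoglycans 8 were higher and 11 lower, with a median of -0.22. Mgp, an inhibitor of calcification, read 12468.8 to 28232.0 in trained mice, against 41482.7 and 36768.9 in the untrained plakoglobin (+/-) and wildtype mice, with -0.91 (SE 0.25; limma, adjusted p = 0.215). Mfap5, a microfibril protein, had -0.65 (SE 0.33), and Fbln2, a fibulin, 0.62 (SE 0.26). Of 8 genes induced by stretch or by the YAP and TEAD regulators 5 were higher and 3 lower, with a median of 0.01. Amotl2 had 0.34 (SE 0.27), Ankrd1 -0.23 (SE 0.50) and Crim1 -0.46 (SE 0.59).

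**Figure D4:**
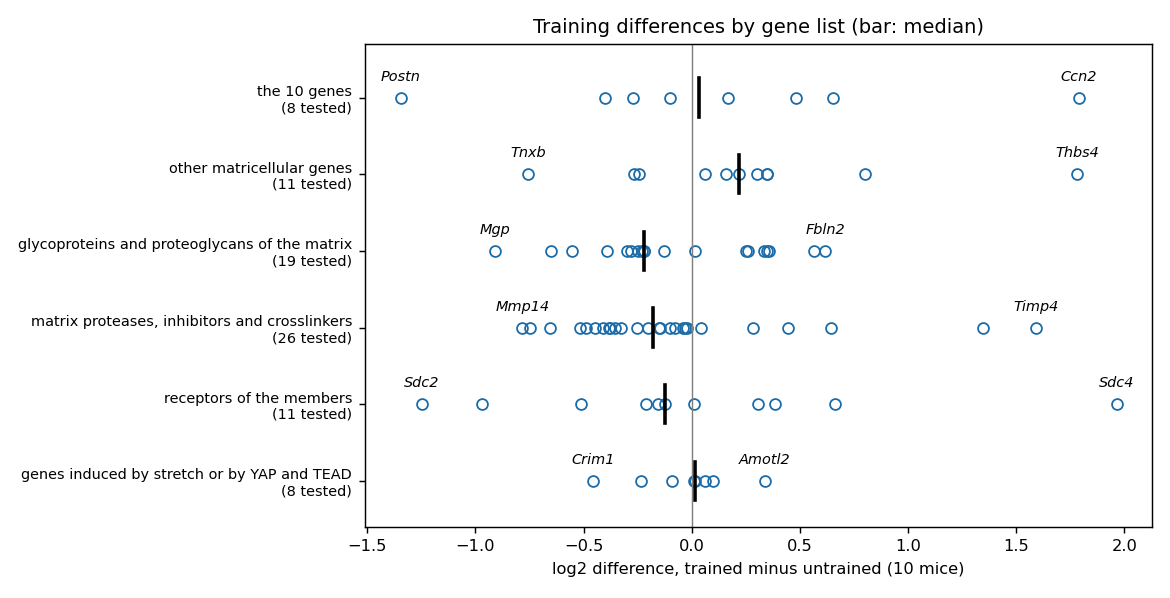
Log2 differences of trained minus untrained mice for each tested gene, as circles, in the 10 genes and in 5 lists of related genes, with the median of each list as a bar and the lowest and highest gene named. Ccn2, Thbs4, Timp4 and Sdc4 stand at the high ends and Postn and Sdc2 at the low ends, while the medians lie between -0.22 and 0.22.

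Likeness of pattern was described by Pearson's r of log2 signals over the 10 mice, which share arrays and scaling, among the 8357 other genes tested. Within the group the closest pair was Ccn2 and Mmp2 (r = 0.78), followed by Sparc and Timp1 (0.65) and Ccn2 and Sparc (0.64). The most opposite pair was Fn1 and Lox (-0.58). Postn and Ccn2, the genes at the ends of the training comparison, had an r of 0.035.

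Outside the group Ccn2 was most like Nipa2 (r = 0.95), Mcl1 (0.94) and Sesn1 (0.93). Sesn1, a stress-induced sestrin, read 8950.9 to 19942.7 in trained mice, against 6048.3 and 4511.5 in the untrained plakoglobin (+/-) and wildtype mice. Postn was most like Gimap4, a GTPase of lymphocytes (0.95), Pdap1 (0.95) and Urm1 (0.95). Sparc was most like Col5a1 (0.92), which encodes a chain of the fibril-forming collagen V. Col5a1 read 4854.6 to 6270.7 in trained males and 3032.9 to 3777.5 in trained females, without overlap. The brightest probe set of Sparc, for likeness to which Col5a1 was picked in these same mice, had none either. Males lay above all females at 2.98% of all probe sets. The closest gene was Pbld1 for Lox (0.96), Adh5 for Mmp2 (0.94), Isl2 for Timp1 (0.94), Fam13c for Tnc (0.92), Znhit2 for Fn1 (0.90) and Camk1d for Dcn (0.89). These values were picked as the highest of all genes ranked, and they are descriptions without a test.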

How the data were processed

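Right ventricles of 10 mice were measured on Affymetrix arrays, 1 per mouse. The deposited values are intensities, made by the authors with MAS5 5.0 per the submitters' processing notes, and their trimmed means of 2501.31 to 2501.55 differ little between arrays. No read depth exists for arrays, and the number of mice limits the precision. The chip annotation gave 1 symbol for 20393 of 22690 probe sets, several for 691 and none for the rest, including controls, and symbols were updated through RefSeq. Signals under 104, the 10th percentile of all values, were set to it before taking log2. The 13576 probe sets at or above the 40th percentile of mean log2 signal were tested, and the brightest probe set stands for a gene.

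Differences were fitted with limma 3.58.1 in R 4.3.3 (moderated with a trend) and adjusted by Benjamini and Hochberg over all probe sets, with a threshold of 0.05. Training was fitted over 10 mice with genotype and sex as terms, and genotype and sex over the 8 trained mice. Genotype by training and genotype by sex were interaction terms. Exact permutation tests used single genes. The fit was tested on simulated data. Members and lists were chosen with earlier results of these data known. From each related list the text names genes past the threshold and up to 3 with the largest absolute training difference, and for each member the gene with the highest Pearson r, or 3 for Ccn2 and Postn. Labels do not state that the mice are independent beyond 1 array each, so p-values measure the spread between these arrays. Alternatives covered normalization, floor, filter, moderation, model terms, arrays with a GAPDH ratio above 2 and each mouse left out.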

Additional observations from a re-analysis of the deposited data

Results flagged for a closer look

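Linear signals were read in 28 groups of 4 mice (14 probe sets in 2 trained groups), which share the same 8 arrays. In 3 of them a mouse had a gap to the nearest other above 0.829 of the group's range, Dixon's critical value. For normally distributed values chance gives about 1 in 20, and linear array signals need not be so distributed. The rule was not applied to log2 signals. Ccn2 read 42544.6 in trained plakoglobin (+/-) replicate 1, where the other 3 mice of the group read 9336.0 to 13049.9. The further probe set of Fn1, which was below the filter, read 312.0 in trained plakoglobin (+/-) replicate 2, where the others read 113.5 to 146.0. The further probe set of Sparc read 26100.7 in trained wildtype replicate 2, where the others read 9254.0 to 10348.8. That array had a GAPDH ratio of 17.8 and an actin ratio of 1.29, and their part in the value was not tested.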

How the results depend on the processing

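There were 2 untrained mice, both older females, and 3 arrays had a high GAPDH ratio. Of 187 training values of the 8 genes under other settings 175 kept their direction and side of the threshold, as did 161 of 166 for genotype and 152 of 158 for sex. The changes of side of Lox for training, of Postn and Sparc for sex, and in part of Ccn2 for training came from the exact permutation tests. There an unadjusted p was set against the same threshold. The cause of the other changes was not tested. No paired analysis was possible because littermates are not identified in the labels, and the replicate numbers used here follow accession order and only name a mouse.

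The count of the 10 probe sets past the training threshold was 0, and 1 (Ccn2) without the 3 arrays of high GAPDH ratio, 1 with females only, and 0 to 1 with each mouse left out. Over all probe sets the training count was 85, against 225 without the 3 arrays and 10 to 87 with each mouse left out, the lowest without the untrained plakoglobin (+/-) mouse. The sex count was 7, against 13 with quantile normalization, 15 with a floor at the 25th percentile, 2 without a filter, 11 with a filter at the 60th percentile, 1 without a trend, 17 without the 3 arrays, 16 with the GAPDH ratio as a covariate, 15 with all 10 mice and 1 to 12 with each mouse left out. The genotype by training count was 0, against 1 with quantile normalization, 66 without a filter, 1 without the 3 arrays and 0 to 1 with each mouse left out.

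Some signs turned. Without the 3 arrays the genotype difference was 0.13 for Fn1 and -0.22 for Timp1, the sex difference of Mmp2 was -0.40, and the training difference of Timp1 was 0.11. Timp1 had a training difference of 0.24 without a sex term and in the permutation test. A further probe set gave a training difference of 0.36 for Fn1, and another gave -0.20 for Lox. With each mouse left out, genotype ranged from -0.27 to 0.073 for Fn1 and -0.16 to 0.62 for Timp1. Sex ranged from -0.030 to 0.13 for Dcn, -0.17 to 0.040 for Lox and -0.12 to 0.57 for Mmp2. Training ranged from -1.03 to 0.48 for Timp1, -0.56 to 2.16 for Ccn5 and -1.13 to 0.22 for Crim1. Without changing sign it ranged from 0.60 to 2.96 for Thbs4, 1.19 to 2.74 for Sdc4 and 0.15 to 0.81 for Mmp2, each lowest or highest without 1 of the untrained mice.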

Other observations

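Of the 7 immediate early genes Ier2 also passed by sex, with a log2 difference of 2.25 between trained males and trained females (SE 0.25; limma, adjusted p = 0.0176). Fosb, of the same family as Fos, had 0.61 (SE 0.41; limma, adjusted p = 0.679). The receptors of the matrix proteins had the highest median sex difference of the 5 related lists, 0.36, with 9 of 11 genes higher in trained males and 0 past the threshold by limma. Over all genes tested 54.5% were higher in males, with a median of 0.03. At an unadjusted p under 0.05 there were 5 of the 11, where 8.82% of all probe sets were called. Of 19 matrix glycoproteins and proteoglycans 17 were lower in trained plakoglobin (+/-) than in trained wildtype mice, with a median log2 difference of -0.14, while 51.2% of all genes tested were higher and their median was 0.0052. None of the 19 passed by limma and 1 had an unadjusted p under 0.05, where 2.01% of all probe sets did. This list was the most one-sided of the 5 related lists by genotype. It and the receptors were singled out after their values were seen, and the genes of a list share the same arrays.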
